A study of Mus musculus with 2 samples.

Results

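Bone morphogenetic protein (BMP) ligands and the secreted proteins that hold them away from their receptors are described here by the histone mark H3K27me3 over their genes in mouse embryonic stem cells. The genes were taken by name, 5 for ligands (Bmp2, Bmp4, Bmp5, Bmp6 and Bmp7) and 4 for antagonists (Nog, Chrd, Grem1 and Fst), and are 9 of the 21755 protein-coding genes on the 19 autosomes and the X chromosome. The mark was mapped by chromatin immunoprecipitation and sequencing with an antibody to H3K27me3 in E14TG2a.4, a male embryonic stem cell line of strain 129/Ola whose stage is labelled as embryonic and whose age as 3.5 day. There is 1 group of 2 samples, biological replicates 1 and 2, which the labels trace to the same donor, so the replicates show the spread between samples of a single line. No treatment, mutation or second cell type is in the series, and the comparison made is ligands against antagonists within these cells.

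BMPs are secreted signals of the transforming growth factor beta superfamily. They bind paired type I and type II receptor kinases, which phosphorylate SMAD proteins that enter the nucleus with Smad4 and switch target genes such as the Id and Msx genes. In the embryo they pattern the dorsoventral axis, the limb, the skeleton and many organs, and antagonists that bind BMPs outside the cell limit where they act. H3K27me3 is laid down by Polycomb repressive complex 2 and marks many developmental genes that embryonic stem cells keep silent. In culture, serum or added Bmp4 helps mouse embryonic stem cells to remain undifferentiated together with LIF. Expression was not measured, so nothing below says whether a gene was transcribed.

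The values are peaks, that is, intervals called by the authors in each replicate alone, on build mm10 (GRCm38). Replicate 1 had 63651 peaks over 53.6 Mb and replicate 2 had 98582 peaks over 58.4 Mb, with median peak lengths of 547 bp and 373 bp. The number of reads behind a list is unknown, so a missing peak may reflect shallow sequencing. A peak from a population of cells cannot tell apart fewer marked cells and less of the mark per cell. A gene is called marked when the window of 1 kb on each side of its annotated 5' end overlaps a peak in both replicates, and bases under peaks of both replicates are called common. Of 8 stem cell genes listed to check the label, 7 were not marked, including Nanog, Klf4 and Dppa5a, and Esrrb was marked over 1447 bp in replicate 1 and 741 bp in replicate 2. Since 26.1% of all protein-coding genes were marked, 7 of 8 unmarked genes is near the background and does not by itself identify the cells. Of 7 genes of fibroblasts, the usual feeder cells, 4 were marked (Col1a1, Col1a2, Thy1 and Pdgfra) and Acta2, Col3a1 and S100a4 were not. That is 57.1%, against 26.1% of all protein-coding genes. These counts do not show whether feeder cells were present, and a part of such cells in the results below was not tested.

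The promoter table from RefSeq on GRCm38.p6 holds 5 of the 9 genes (Bmp4, Bmp5, Bmp6, Chrd and Grem1), each with 250 bases before and 50 after the RefSeq start. Bmp2, Bmp7, Nog and Fst are not among its entries. The windows below run 5′ to 3′ on the gene's own strand, with each CpG dinucleotide in capitals. CpG content differs widely between them. They were chosen by their covered bases or after their values were seen, so they cannot show how CpG content relates to coverage. Bmp5 is the ligand with the fewest covered bases, Grem1 and Chrd are the antagonists with the most and the fewest, and Bmp4 was added after its values were seen. The Bmp4 window is chr14:46390620-46390919 on the minus strand, that of Bmp5 chr9:75775115-75775414 on the plus strand, that of Chrd chr16:20732877-20733176 on the plus strand and that of Grem1 chr2:113758599-113758898 on the minus strand. The letters are those of the reference genome, not of strain 129/Ola.
Bmp5: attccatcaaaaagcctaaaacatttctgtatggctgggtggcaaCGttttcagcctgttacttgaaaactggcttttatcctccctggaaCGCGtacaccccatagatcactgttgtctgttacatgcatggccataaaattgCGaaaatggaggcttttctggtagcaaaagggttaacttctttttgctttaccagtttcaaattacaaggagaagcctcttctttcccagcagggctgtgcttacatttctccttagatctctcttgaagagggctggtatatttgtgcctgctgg
Bmp4: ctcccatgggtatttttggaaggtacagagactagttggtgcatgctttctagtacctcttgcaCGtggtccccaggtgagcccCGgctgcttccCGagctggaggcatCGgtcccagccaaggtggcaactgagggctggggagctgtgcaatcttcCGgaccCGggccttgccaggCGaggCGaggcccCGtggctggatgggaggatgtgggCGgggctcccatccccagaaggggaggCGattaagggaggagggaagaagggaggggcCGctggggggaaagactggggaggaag
Grem1: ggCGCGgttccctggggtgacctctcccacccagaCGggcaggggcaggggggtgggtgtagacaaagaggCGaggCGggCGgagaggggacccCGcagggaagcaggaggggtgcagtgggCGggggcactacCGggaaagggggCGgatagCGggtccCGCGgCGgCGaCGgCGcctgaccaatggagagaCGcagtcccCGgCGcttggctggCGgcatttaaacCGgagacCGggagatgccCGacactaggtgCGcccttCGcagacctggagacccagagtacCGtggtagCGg
Chrd: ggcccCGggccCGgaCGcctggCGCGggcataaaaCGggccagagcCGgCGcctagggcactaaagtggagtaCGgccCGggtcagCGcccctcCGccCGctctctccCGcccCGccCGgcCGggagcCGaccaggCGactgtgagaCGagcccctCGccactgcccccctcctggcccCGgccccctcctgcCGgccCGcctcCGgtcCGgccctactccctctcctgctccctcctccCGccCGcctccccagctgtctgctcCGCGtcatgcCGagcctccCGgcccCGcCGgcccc
The Bmp5 window holds 4 CpGs and the Bmp4 window 12, with no base under a peak in either replicate. The Grem1 window holds 28 CpGs and was covered over 232 of its 300 bases in replicate 1 and all 300 in replicate 2. The Chrd window has the most, 34 CpGs, and had no base under a peak in either replicate. The median over the 32851 promoters of the table was 7 CpGs. The RefSeq start of Bmp6 lies 609 bp downstream of the GENCODE 5' end, so its window falls within the untranslated part of the first exon and is not printed. It holds 27 CpGs and was covered over 300 of 300 bases in both replicates.

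For Bmp6, the ligand with the most covered bases, the stretch shown is the peak-free gap over its GENCODE 5' end, because peaks flank it on both sides. A 5' end covered in neither replicate is frequent, at 48.9% of all marked genes. The gap is free of peaks in both replicates, spans 199 bp from 174 bp upstream to 24 bp downstream (chr13:38344933-38345131, plus strand, GRCm38) and is again written with CpGs in capitals.
Bmp6 gap: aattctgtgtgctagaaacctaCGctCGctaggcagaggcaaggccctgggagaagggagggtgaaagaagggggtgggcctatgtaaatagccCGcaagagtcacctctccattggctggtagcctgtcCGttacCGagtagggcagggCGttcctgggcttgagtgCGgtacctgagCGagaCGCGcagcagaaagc
This gap holds 10 CpGs, or 5.03 per 100 bp. Peaks close in on it from both sides in each replicate.

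H3K27me3 peaks lay at the 5' ends of 8 of the 9 genes. Of the 5 ligands 4 were marked, all but Bmp5, and so were all 4 antagonists. Over all protein-coding genes 26.1% were marked. With at least 50% of the window covered in both replicates, 3 of the 5 ligands (Bmp2, Bmp6 and Bmp7) and 3 of the 4 antagonists (Nog, Grem1 and Fst) passed, against 14.0% of all protein-coding genes. Within 5 kb of the 5' end the same 8 genes had a peak in both replicates, and so did their gene bodies. The shares of all protein-coding genes for those measures were 33.9% and 33.8%.

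**Figure D1:**
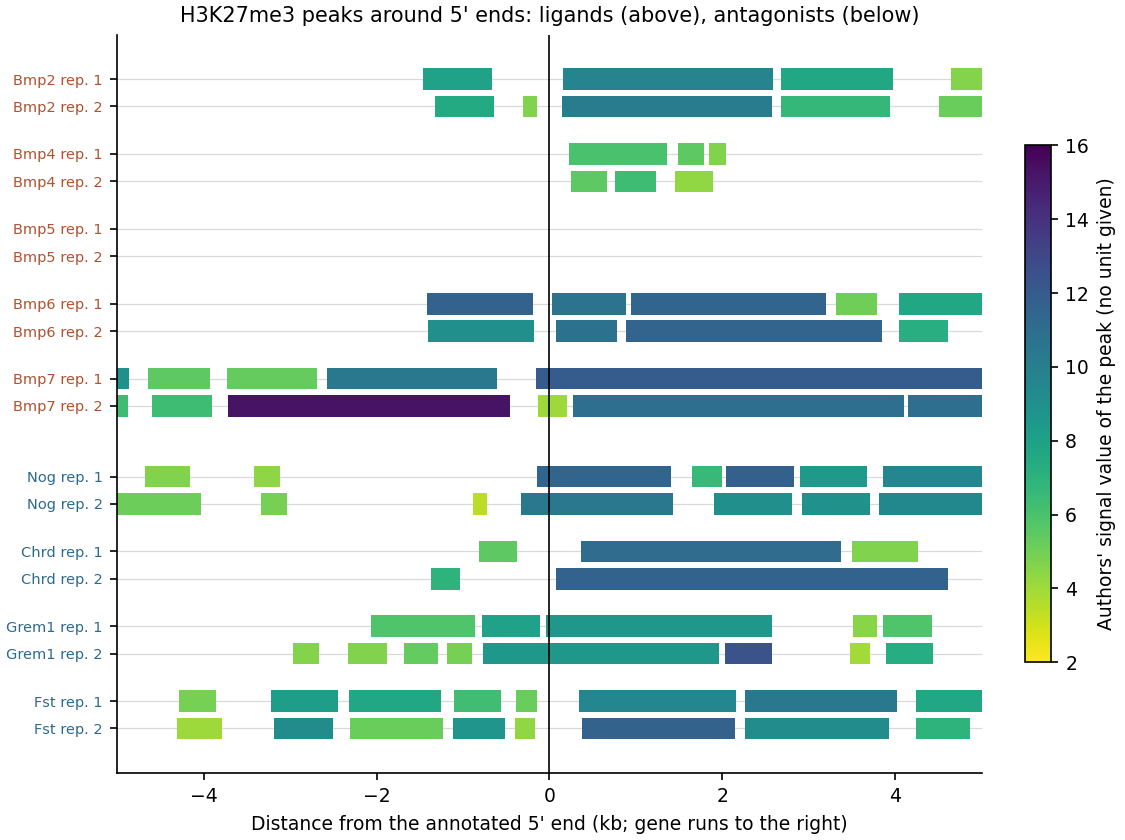
Peaks of each replicate within 5 kb of the annotated 5' end, with ligands above antagonists, distance in kb on the x axis (each gene runs to the right) and the authors' signal value as colour. Bmp5 has no peak, Bmp4 has peaks on the downstream side only, and Bmp2, Bmp6, Chrd and Fst have peaks on both sides of a gap at the 5' end.

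Bmp2 (chromosome 2, 133552159 to 133562885, plus strand) encodes a ligand needed for heart and bone formation. Peaks covered 1185 bp of its window in replicate 1 and 1376 bp in replicate 2. The highest signal value there was 9.67 and 10.25, above 94.5% and 96.9% of all peaks of the same list. Such percentiles are high at marked genes in general, with medians of 88.2 and 91.7 over all marked protein-coding genes in replicates 1 and 2. The replicates shared 86.1% of the bases that either covered, and replicate 2 alone had a peak of 168 bp just upstream of the 5' end. Both replicates had the same main peak, which began 155 bp downstream and was 2437 bp long in replicate 1, and began 148 bp downstream and was 2423 bp long in replicate 2.

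Bmp4 (chromosome 14, 46383520 to 46390669, minus strand) encodes the ligand that induces mesoderm and germ cell precursors in the mouse embryo. It was the least covered of the marked ligands, with 771 bp in replicate 1 and 660 bp in replicate 2. Its highest signal value was 6.03 and 6.36, at the 76.7th and 85.4th percentile of the lists, and it was the lowest of the 8 marked genes in both replicates. No peak lay within 5 kb upstream in either replicate. The first covered base was 230 bp downstream in replicate 1 and 252 bp downstream in replicate 2. Of the marked protein-coding genes, 34.2% had fewer bases covered in both replicates within 1 kb and 22.3% had fewer within 5 kb.

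Bmp5 (chromosome 9, 75775364 to 75900310, plus strand) encodes a ligand of skeletal development, lost in the short ear mouse. It had 0 covered bases within 1 kb, within 5 kb and over its gene body of 124947 bp, in both replicates. The relaxed lists, which hold 219918 and 225165 peaks, had none in these places either. The nearest upstream peak ended 90.4 kb away in replicate 1 and 92.6 kb away in replicate 2, and the nearest downstream peaks began 237.7 kb and 241.1 kb from the 5' end. A relaxed peak of replicate 2 lay 39.0 kb upstream, with no relaxed peak of replicate 1 nearer than 90.3 kb. It shares 0 common bases over all 3 regions with 13801 of the other protein-coding genes (63.5%).

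Bmp6 (chromosome 13, 38345107 to 38500302, plus strand) encodes the ligand that drives hepcidin, the hormone of iron balance, in the liver. Peaks covered 1733 bp of its window in replicate 1 and 1653 bp in replicate 2, more than in any other of the 5 ligands. The highest signal value was 11.7 and 11.6, at the 97.5th and 98.1st percentile. These values came from different peaks, 1422 to 186 bp upstream in replicate 1 and 880 to 3845 bp downstream in replicate 2. Of the bases covered in either replicate, 87.9% were covered in both.

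Bmp7 (chromosome 2, 172868012 to 172940321, minus strand) encodes a ligand needed for kidney and eye development. Its window was covered over 1557 bp in replicate 1 and 1595 bp in replicate 2. The highest signal values of the 9 genes stood here in both replicates, 12.0 in replicate 1 and 15.3 in replicate 2, at the 97.8th and 99.8th percentile. The peaks that carried them were not the same: in replicate 1 it ran from 161 bp upstream to 5141 bp downstream, and in replicate 2 from 3716 bp to 462 bp upstream. Within 5 kb Bmp7 was the most covered of the 9 genes, with 9025 and 9072 bp in replicates 1 and 2, and 96.7% of marked genes had fewer bases covered in both replicates.

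Nog (chromosome 11, 89300638 to 89302332, minus strand) encodes noggin, which binds BMPs and blocks both receptor contacts. Peaks covered 1148 bp of its window in replicate 1 and 1501 bp in replicate 2. The highest signal value was 11.5 and 10.4, at the 97.2nd and 96.9th percentile. Peaks ran over the 5' end itself in both replicates, from 147 bp upstream to 1404 bp downstream and from 335 bp upstream to 1432 bp downstream. The start of the lincRNA gene Gm2018, on the opposite strand, lies 391 bp upstream, and peaks cannot be assigned to a strand.

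Chrd (chromosome 16, 20733127 to 20742384, plus strand) encodes chordin, a BMP-binding protein of the organizer, the dorsal signalling centre of the gastrula. It was the least covered antagonist within 1 kb, with 1076 bp in replicate 1 and 930 bp in replicate 2. The highest signal value was 11.1 and 11.6, at the 96.8th and 98.3rd percentile. The replicates differed most here, sharing 46.3% of the bases that either covered, against 76.5% to 94.4% in the other 7 marked genes. The downstream peak began 366 bp from the 5' end in replicate 1 and 71 bp from it in replicate 2, and the upstream peaks of the replicates, 371 to 811 bp and 1038 to 1371 bp away, did not overlap. The start of Thpo, the gene of thrombopoietin on the opposite strand, lies 1384 bp downstream of the Chrd 5' end, under the same peak in both replicates.

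Grem1 (chromosome 2, 113746164 to 113758646, minus strand) encodes gremlin, an antagonist of the DAN family that acts in limb and kidney development. It was the most covered of the 9 genes within 1 kb, with 1847 bp in replicate 1 and 1876 bp in replicate 2, and the replicates shared 94.4% of the bases that either covered. The highest signal value was 8.59 and 8.55, the lowest among the antagonists. Of the marked genes 85.4% had fewer common bases within 1 kb. In replicate 2 a stronger peak with a signal value of 12.4 lay 2032 to 2575 bp downstream, where replicate 1 had a single peak of 2616 bp reaching back to the 5' end. The likeness of other genes to Grem1 was measured as the Euclidean distance between the common shares (0 to 1) of the 3 regions, within 1 kb, within 5 kb and gene body. The 3 nearest protein-coding genes were Ripply3, Slc2a10 and Prom2, at distances of 0.0235, 0.0365 and 0.0368.

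Fst (chromosome 13, 114452290 to 114458951, minus strand) encodes follistatin, which binds activins most tightly and BMPs as well. Its window was covered over 1344 bp in replicate 1 and 1341 bp in replicate 2, with 92.5% of these bases shared. The highest signal value was 9.59 and 11.6, at the 94.0th and 98.3rd percentile. Within 5 kb it was the most covered antagonist, with 7399 and 7181 bp, and 90.1% of marked genes had fewer common bases. The antisense gene Gm47040 starts 288 bp downstream on the opposite strand.

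**Figure D2:**
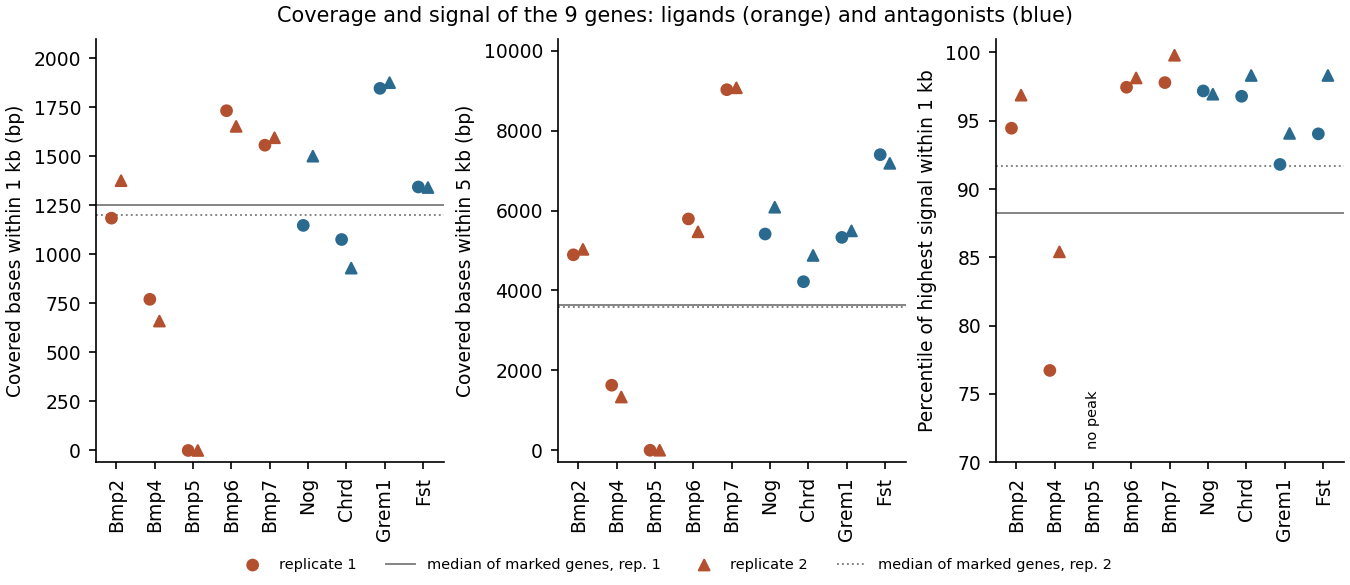
Covered bases within 1 kb (left) and within 5 kb (middle) of the 5' end and the percentile of the highest signal value within 1 kb among all peaks of the same list (right), with ligands in orange, antagonists in blue, circles for replicate 1, triangles for replicate 2 and grey lines for the medians of the 5679 marked genes. Bmp4 lies below both medians in all 3 panels, and the other 7 marked genes lie above them within 5 kb.

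The covered bases did not separate ligands from antagonists. Within 1 kb the median of bases covered in both replicates was 1185 bp over the 5 ligands (0 to 1584 bp) and 1219 bp over the 4 antagonists (635 to 1808 bp), against 1021 bp over the 5679 marked genes and 0 bp over all protein-coding genes. The difference between the medians, ligands minus antagonists, was -34 bp. It turned positive when Bmp4, Bmp5, Grem1 or Fst was left out, with the window at 2.5 kb and with the relaxed lists, so it has no stable direction. Within 5 kb the medians were 4700 bp for ligands (0 to 8799 bp) and 4916 bp for antagonists (3778 to 6994 bp), and the marked genes had 2937 bp. The highest signal values had medians of 10.7 and 10.9 over the 4 marked ligands in replicates 1 and 2, and of 10.35 and 11.01 over the antagonists. The marked genes had medians of 7.67 and 7.56. No test was made between groups of 5 and 4 genes, which were chosen with earlier results of these data known.

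The order of the genes was close between the replicates. Over the 8 marked genes the Spearman rho between replicates was 0.905 for bases covered within 1 kb, 0.929 for bases covered within 5 kb and 0.719 for the highest signal value. These genes share both libraries, so the values are descriptions. Ordered by the bases covered in both replicates within 1 kb, Grem1 (1808 bp) came first, then Bmp6 (1584 bp), Bmp7 (1451 bp), Fst (1290 bp), Bmp2 (1185 bp), Nog (1148 bp), Bmp4 (660 bp), Chrd (635 bp) and Bmp5 (0 bp). The ranges of the 2 replicates overlapped between Bmp2 and Fst, Bmp2 and Nog, and Nog and Fst, so these neighbours do not differ beyond their spread. The place of Chrd holds only for common bases, since its replicates shared 46.3% of the bases that either covered. In each replicate alone Bmp4 was covered over fewer bases than Chrd, 771 against 1076 bp in replicate 1 and 660 against 930 bp in replicate 2. In the list of both libraries together Bmp4 had 772 bp, Nog 1187 bp and Chrd 1415 bp.

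Within 5 kb of the 5' end, more of the common bases lay on the downstream side. These counts stop at 5 kb and do not measure how far the mark reached. In 8 of 8 marked genes more common bases lay within 5 kb downstream of the 5' end than upstream, which held for 68.9% of all marked protein-coding genes. Bmp2 had 4042 bp downstream and 658 bp upstream, and Bmp6 4014 bp and 1218 bp. Bmp7 stood out by its upstream side, with 3921 bp against 4878 bp downstream, and Fst followed with 2935 bp upstream and 4059 bp downstream. Bmp4 (1239 bp downstream) and Chrd (3778 bp downstream) had no common base upstream. Nog had 4152 bp downstream and 888 bp upstream, and Grem1 3229 bp and 1563 bp. Because Nog is 1695 bp long, most of its downstream bases lie beyond its 3' end.

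**Figure D3:**
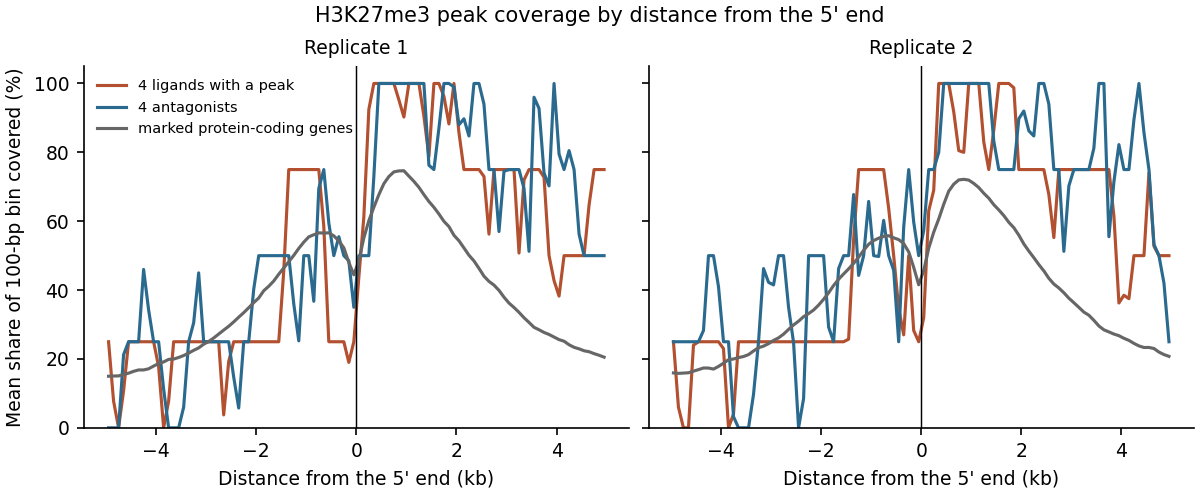
Mean share of each 100-bp bin covered by peaks (y axis, %) against the distance from the 5' end in kb, for replicate 1 (left) and replicate 2 (right), with the 4 marked ligands in orange, the 4 antagonists in blue and all 5679 marked protein-coding genes in grey. Both small groups stay above the grey line in every bin from 0.5 to 5 kb downstream and lie on both sides of it upstream.

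From 500 to 2000 bp downstream, the mean covered share was 95.9% and 91.4% over the marked ligands in replicates 1 and 2, and 95.8% and 91.5% over the antagonists. All marked genes had 67.7% and 66.3%. From 2000 to 5000 bp downstream it was 66.0% and 64.1% for ligands and 74.4% and 76.3% for antagonists, against 33.1% and 33.1% for all marked genes. In the 500 bp just upstream of the 5' end the ligands had 23.8% and 33.0% and the antagonists 47.8% and 53.6%, with 51.0% and 49.5% for all marked genes. Each mean over 4 genes rests heavily on every one of them, and these shares were not tested.

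The 5' end itself was free of peaks in most of these genes. In 5 of the 8 marked genes (Bmp2, Bmp4 and Bmp6, and Chrd and Fst) the first base was covered in neither replicate, and in the other 3 (Bmp7, Nog and Grem1) it was covered in both. Over all marked protein-coding genes the shares were 48.9% for neither replicate and 36.7% for both, so 5 of 8 is near the background. At Chrd the gap between the flanking peaks was 736 bp in replicate 1 and 1108 bp in replicate 2, and at Fst it was 487 and 541 bp. It was narrowest at Bmp6, with 210 and 246 bp. At Bmp2 it was 816 bp in replicate 1 and 288 bp in replicate 2, where the small upstream peak of 168 bp made it shorter. Bmp4 has no flanking peak on its upstream side. The same count of 5 genes was found with the relaxed lists and with the list of both libraries together, alternatives chosen after the data were seen.

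Over whole genes the antagonists were covered over larger shares than the ligands. The median share of the gene body covered in both replicates was 11.1% over the ligands (0 to 44.5%) and 52.7% over the antagonists (25.9 to 82.9%), and the ranges overlapped. The 5679 marked genes had a median of 7.35%. Gene length moves with this difference: the median length was 72310 bp for ligands and 7960 bp for antagonists. Its part in the result was not tested. Nog, the shortest of the 9 genes, was covered over 85.4% in replicate 1 and 84.5% in replicate 2, and Bmp6, the longest at 155196 bp, over 3.20% and 3.98%. Among genes of like length, Bmp4 (7150 bp) was covered over 22.8% and 21.1%, and Fst (6662 bp) over 72.7% and 68.7%. Bmp2 (10727 bp) was covered over 47.1% and 45.9%, Chrd (9258 bp) over 40.8% and 49.1% and Grem1 (12483 bp) over 27.4% and 32.9%.

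**Figure D4:**
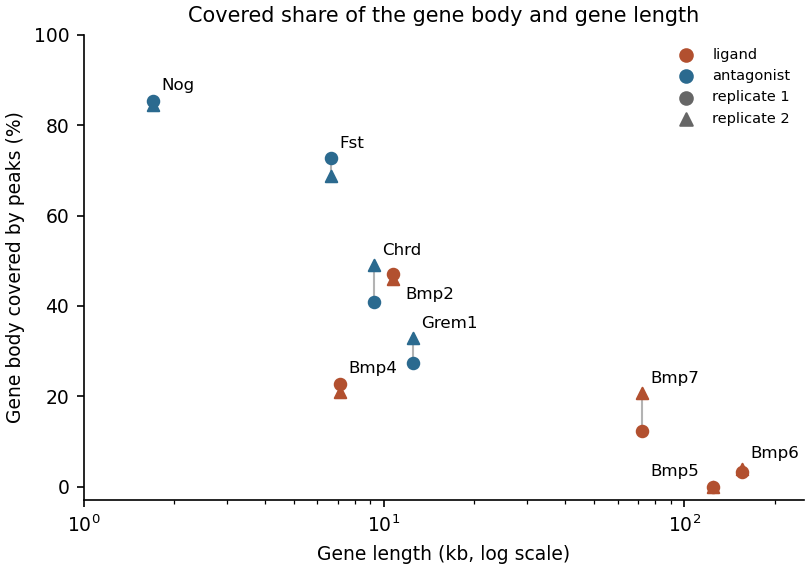
Share of the gene body covered by peaks (y axis, %) against gene length (x axis, kb, log scale), with ligands in orange, antagonists in blue, circles for replicate 1 and triangles for replicate 2. The 3 longest genes, Bmp7, Bmp5 and Bmp6, are ligands and have the lowest shares.

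Common bases joined within 3 kb formed a domain at each of the 8 marked genes. The domain at Bmp7 spanned 16237 bp and ranked 582nd by length of 16987, and the one at Nog spanned 13696 bp and ranked 793rd. Fst followed with 10665 bp, Bmp2 with 7179 bp, Grem1 with 6486 bp, Bmp6 with 6014 bp, Chrd with 3895 bp and Bmp4 with 1643 bp. The median was 6596 bp over the marked ligands and 8576 bp over the antagonists, against 1521 bp over all domains. These are unlike sets. For each gene the longest domain touching its 1 kb window was taken, while all domains lie anywhere and reach down to 1 bp. Domain lengths at the 5679 marked genes are not given here, so the lengths and ranks do not set these genes apart from other marked genes. The domain at Nog was 7300 bp long when bases were joined within 1 kb.

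Coding sequence, untranslated sequence and introns held different parts of the mark. All 696 bp of coding sequence of Nog, a gene without an intron, lay under peaks of both replicates, and so did 90.9% of the coding bases of Fst and 53.6% of those of Chrd. Among ligands the covered share of coding bases was 35.5% for Bmp6, 30.6% for Bmp7 and 25.7% for Bmp2. In Bmp4 and Grem1, whose coding exons lie away from the 5' end, it was 0%. Introns held 90.8% of the common bases of Bmp4 and 64.1% of those of Grem1, counted over the gene and 5 kb upstream.

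The long ligands Bmp6 and Bmp7 also had peaks deep inside the gene, and there the replicates differed. More than 10 kb from the 5' end, a distance set after the peaks were seen, Bmp7 had 4 peaks in replicate 1 and 20 in replicate 2 over 62.3 kb. Of these, 3 in each replicate overlapped a peak of the other. In replicate 1 these began 11214, 24924 and 41382 bp downstream, and the strongest, 24924 to 25418 bp downstream, had a signal value of 6.03 there and 5.49 in replicate 2. In Bmp6 replicate 1 had 1 such peak and replicate 2 had 7, none overlapping, with signal values of 2.49 in replicate 1 and of 2.89 to 4.63 in replicate 2. Replicate 2 has more and shorter peaks over the whole genome too, and the part of that in these counts was not tested. In the relaxed lists the counts were alike, 40 and 37 peaks in Bmp7 and 27 and 28 in Bmp6, and 29 and 25 of those in Bmp7 but 10 and 10 of those in Bmp6 overlapped the other replicate. Bmp5, 124947 bp long, had none.

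CpG content was high around the 5' ends of most of these genes. The ratio of observed to expected CpG within 500 bp had a median of 0.804 over the ligands and 0.773 over the antagonists, against 0.634 over the marked genes and 0.558 over all protein-coding genes. Bmp2 had a ratio of 1.08, above 99.7% of protein-coding genes, and Nog one of 0.899. The lowest was that of Bmp5 (0.264), which falls in the lowest of 3 equal classes of genes, of which 10.5% were marked. Bmp4 (0.443) and Chrd (0.671) fall in the middle class, of which 39.4% were marked. The other 6 genes fall in the highest class, with 28.5% marked.

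Inside and outside the common peaks the CpG density of the windows differed from gene to gene. The bases outside include those under a peak of a single replicate, so they are not all free of peaks. In 6 of the 8 marked genes the bases outside the common peaks held more CpGs per 100 bp than those inside, which was the case for 65.1% of the 5240 marked genes whose window was partly covered, so 6 of 8 is near the background. At Fst the density was 5.50 per 100 bp inside and 11.25 outside, and at Bmp7 it was 6.07 inside and 9.82 outside. Bmp4, with 3.03 inside and 2.09 outside, and Nog, with 9.67 inside and 8.44 outside, ran the other way. Bmp6 had 5.997 inside and 9.353 outside, but its gap free of peaks in both replicates had 5.025 per 100 bp. With that gap alone as the outside, Bmp6 also ran the other way. Bases free of peaks in both replicates were not counted apart in the other marked genes.

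Motifs were counted on both strands in the 5 RefSeq windows, by their letters alone. The GC-rich SMAD element GGCGCC, its own reverse complement, occurred in Grem1 and Chrd (2 of 5), against 11.9% of all 32851 promoters. This motif holds a CpG, and the Grem1 and Chrd windows hold 28 and 34 CpGs against a median of 7 over the table. The shares over all promoters were not matched for CpG content, and its part in these counts was not tested. The SMAD box CAGAC occurred in all but Bmp4 (4 of 5), against 49.6%. CCAAT occurred in Grem1 alone (37.4% of all promoters), and neither TATAAA (13.6%) nor CGCGCG (11.3%) occurred in any of the 5. CGCGCG and GGCGCC can share bases, as can any of these with an overlapping match. A match is a string of letters and says nothing about binding.

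Around the 9 genes, 31 of 49 other genes of the pathway (63.3%) were marked, against 26.1% of all protein-coding genes. The count ran from all 3 chordin proteases and all 6 targets to 2 of 8 SMAD and SMURF genes. The lists were drawn up with earlier results of these data known, and no test was made of them.

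Of 9 other BMP and GDF ligands 7 were marked, including Bmp3, Bmp8a, Gdf6 and Gdf7, and Bmp10 and Bmp15 had no peak in either replicate. Gdf7, a ligand of the roof plate of the spinal cord, had signal values of 14.8 and 14.5, and Gdf6, a ligand of joints and eye, had 17.3 and 12.2. Bmp10, a heart ligand, and Bmp15, an oocyte ligand, had no covered base within 5 kb in either replicate. Of 12 other secreted antagonists 7 were marked, including Chrdl2, Sost, Nbl1 and Bmper, and Cer1, Dand5 and Chrdl1 were not. Chrdl1 had 1027 covered bases in replicate 2 and none in replicate 1. Sost, the antagonist made by bone cells, had signal values of 13.7 and 11.9.

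The 3 proteases that cut chordin, Bmp1, Tll1 and Tll2, were all marked, with 1729 and 1681 bp covered at Bmp1, 1902 and 1787 bp at Tll1 and 1852 and 1895 bp at Tll2. Each of them was more covered within 1 kb than Chrd in both replicates. Bmp1 is a protease in spite of its name.

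Of 7 receptors 4 were marked within 1 kb, and all 7 had a peak of both replicates within 5 kb, where 33.9% of all genes did. Bmpr1b and Acvrl1, type I receptors, were covered over 2001 and 1943 bp and over 2001 and 1915 bp, nearly the whole window. Acvr1 had 512 and 258 bp and Bmpr2 81 and 41 bp. Bmpr1a, Acvr2a and Acvr2b each had a peak within 1 kb in a single replicate and were not called. Within 5 kb they had 260 and 851 bp, 1202 and 539 bp, and 950 and 241 bp in replicates 1 and 2. Of 4 co-receptors and decoys Rgma and Rgmb were marked, and Eng and Bambi, a decoy receptor, were not.

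Of 8 SMAD and SMURF genes 2 were marked, 25%, close to the share of all genes. These were the receptor-regulated Smad9, with 1831 and 1890 bp, and the inhibitory Smad6, with 472 and 474 bp. Smad1, Smad4 and Smad5 had no covered base within 1 kb in either replicate. All 6 target genes were marked. Msx2 was covered over 2001 and 1928 bp and Msx1 over 1828 and 1745 bp, Id3 over 1812 and 1523 bp and Id4 over 530 and 476 bp. The other targets had weak peaks. The highest signal value was 3.65 and 3.67 at Id1, at percentiles 16.05 and 24.52, and 3.16 and 4.40 at Id2, at percentiles 4.77 and 57.56. With at least 50% of the window covered in both replicates, 3 of the 6 targets passed, against 14.0% of all protein-coding genes.

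**Figure D5:**
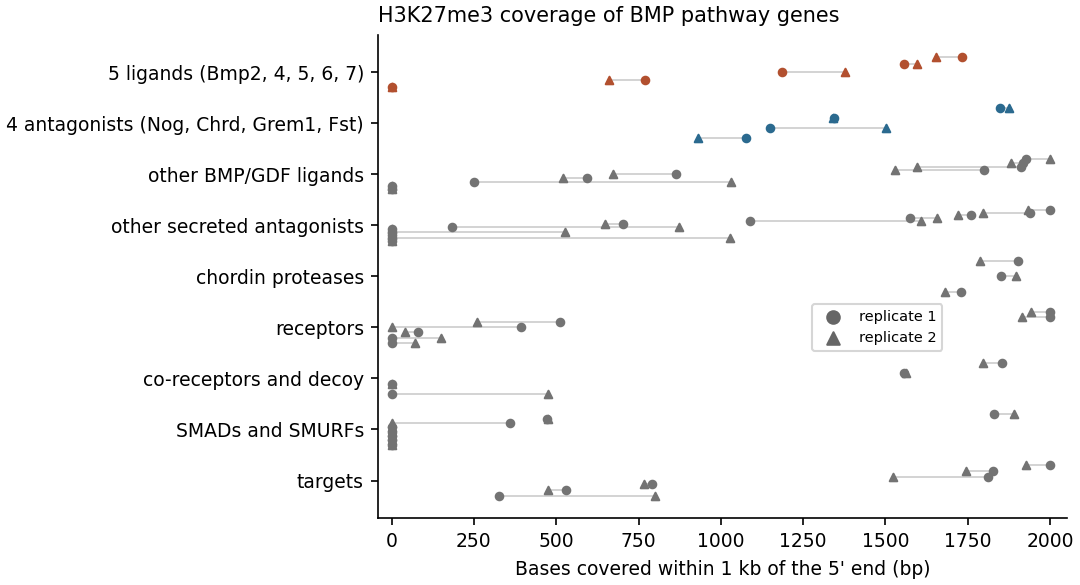
Bases covered within 1 kb of the 5' end (x axis, bp) for every listed gene of the pathway, by role, with circles for replicate 1 and triangles for replicate 2 of the same gene joined by a line. The chordin proteases lie at 1681 bp or more, and most SMAD and SMURF genes lie at 0.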

How the data were processed

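H3K27me3 ChIP-seq peak lists of 2 biological replicates were analysed, with 7 lists used. The values are a signal per peak as deposited, its scaling not given in the sources used here, and the deposited −log10 q. Both are the authors', and were used only to rank, describe or filter peaks within a list. Per the file headers, the lists are on mm10 and come from 2 processing runs: the first gave relaxed and replicated lists, the second pseudoreplicated and replicated ones. For the aligner, caller and thresholds, no source used here gives a name, and no control sample was analysed here. Depth is unknown, so no interval for counting error was computed.

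The pseudoreplicated list of each replicate was intersected with GENCODE mouse release M21 genes on GRCm38, with a minimum overlap of 1 bp. No peak lay past a chromosome end. Common bases lie under peaks of both replicates, and percentiles rank a peak among all peaks of its list. Genes, motifs and lists were chosen with earlier results of these data known. Named were all 9 genes, up to 4 marked genes per list by mean signal percentile, up to 3 unmarked ones in alphabetical order, and the 3 nearest patterns to the most covered gene. Id1 and Id2 were added outside this rule. The sequence of Bmp4 and the Bmp6 gap were chosen after their values were seen. Alternatives were other windows, lists and coverage rules. Overlap code was tested on simulated windows. Python 3.11.15, NumPy 2.4.6, SciPy 1.17.1 and Matplotlib 3.10.9 were used.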

Additional observations from a re-analysis of the deposited data

How the results depend on the processing

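The counts of marked genes did not change direction. There were 4 ligands and 4 antagonists marked under every window, list and left-out replicate tried, and 3 and 3 with 50% of the window covered. Wider windows and a left-out replicate only loosen the rule, so they could not lower the counts. Of all protein-coding genes, 21.4% were marked within 0.5 kb, 34.2% with the first run's replicated list and 14% with 50% of the window covered. With 50% of the window covered 20 of the other pathway genes were marked, against 31 under the main rule. The median of common bases within 1 kb over the 9 genes, 1185 bp, was 1331 bp with the relaxed lists, 1417 bp with the list of both libraries together and with the second run's replicated list, and 1421 bp with that of the first. It ranged from 1185 to 1376 bp with either replicate left out. Of single genes Chrd moved most, from 635 bp in common to 930 and 1076 bp with a replicate left out and 1415 bp with the list of both libraries together. The median signal value, 10.8, was 9.61 as a length-weighted mean. The median CpG ratio, 0.804, was 0.873 over 250 bp and 0.692 over 1 kb on each side. The difference of medians, ligands minus antagonists, of -34 bp was -154 bp within 0.5 kb, 23 bp within 2.5 kb, -216 bp within 5 kb, 3.5 bp with the relaxed lists and -45 to -61 bp with a replicate left out. Without Bmp2 it was -163.5 bp, without Bmp4 or Bmp5 99 bp, without Bmp6 or Bmp7 -296.5 bp, without Nog or Chrd -105 bp, and without Grem1 or Fst 37 bp. As a share of the gene body it was -41.6 percentage points. Common bases cannot exceed the bases covered in either replicate alone, so leaving a replicate out could only raise or keep the value of each gene. The cause of the other shifts was not tested. No paired analysis was possible because both replicates belong to 1 group. Read depth is unknown, which limits what an absent peak means, and signal values of different lists are not on a known common scale.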
